A study of Hydra vulgaris with 99 samples.

Results

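Mid-gastric apical regeneration was followed here over its first 4 h in Hydra vulgaris of the strain Jussy. After section at the 50% level of the body axis, the tips that regenerate the apical end were collected at 0, 0.5, 1, 2 and 4 h. All columns of the raw count table that carry this series and these times were taken, which gave 15 of the 99 libraries, in 5 of the 33 groups of 3. The 0 h tips, sectioned like the others, were the reference for each later time. The study also collected the facing tips of the same 50% level, which regenerate the basal end, tips that regenerate the apical end after decapitation at the 80% level, later times up to 48 h, and uncut heads, feet (basal disk with lower peduncle) and intact animals. Each library pooled tissue of 20 to 25 animals and was made from polyA-selected RNA. The labels give no transgene, RNAi or drug for any group used here.

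Hydra rebuilds a head from the upper end of a cut body column without needing prior growth. In the hours after section the wound closes, injury signals spread, interstitial cells near some cuts die, and Wnt signalling begins to set up an organizer at the tip that will form the head. Immediate injury responses are known to be shared by tips of either fate, and the difference between head and foot regeneration builds up later. The count table identifies assembled transcript sequences and the loci they were grouped into, but pairs none of them with a gene name, and 0 of 79774 identifiers were found in the available gene table. The features are therefore described by their time courses, by their levels in uncut head and foot, and by how the sequences of one locus behaved together.

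The 15 libraries held 28040212 to 36622322 reads (median 33387934) and detected 55070 to 57961 sequences. Library A of 0 h stood apart. Its mean correlation with the other 0 h libraries was 0.871 over 12209 sequences, against 0.923 to 0.981 for the other 14 libraries with their replicates. On the first principal component, which held 43.1% of the variance, it lay at -77.96, while the other 14 lay between -23.4 and 18.7. In this library 69 of 4821 abundant sequences were at least 4-fold below both replicates, against 0 to 4 sequences in each of the others. Since 0 h is the reference of every early contrast, counts are given with and without that library. As a check on tissue, 2332 sequences at least 4-fold higher in uncut head than in uncut foot (the head list) and 2396 at least 4-fold higher in foot than in head (the foot list) were summed. The head list took 1.28% to 1.52% of the reads of the 15 libraries, against 9.54% ± 0.845 (SD, n = 3) in heads. The foot list took 8.73% to 9.97%, against 11.5% ± 0.959 (SD, n = 3) in feet and 0.981% ± 0.223 (SD, n = 3) in heads, so the tips were poor in head sequences at all 5 times.

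Transcript changes called against 0 h were few at first and more frequent at each later time. With all libraries most calls were increases, but at 1 h and 2 h this balance depended on which libraries were used. A sequence was called when its adjusted p was under 0.05 (edgeR quasi-likelihood test, Benjamini-Hochberg over the 54272 sequences tested) and its level differed at least 2-fold. The test called 1 sequence at 0.5 h, which is 0.00184% of those tested, and 42 at 1 h (0.0774%). At 2 h it called 238 (0.439%), and at 4 h it called 473 (0.872%). At the last 3 times the higher calls numbered 34, 179 and 372 and the lower calls 8, 59 and 101. The calls at 4 h came from 360 loci, of which 270 held a higher sequence, 94 a lower one and 4 both. In the same order, the median log2 fold change of the higher calls was 2.44, 1.99 and 2.02, and that of the lower calls was -1.98, -1.77 and -1.60. Without library A of 0 h the counts were 0, 18, 126 and 339, and without library B they were 3, 55, 362 and 586. Without library C they were 3, 59, 305 and 342, of which 25 of 59 at 1 h, 158 of 305 at 2 h and 256 of 342 at 4 h were higher, so the majority at 1 h turned to decreases. Without all libraries of letter C, 54 of 147 were higher at 1 h and 149 of 302 at 2 h, a minority at both times, and 178 of 246 at 4 h. The sequences called changed too. Of the 42 calls at 1 h, 14 were among the 18 without library A of 0 h and 20 among the 59 without library C. In bulk tissue, fewer cells of a type and less RNA per cell cannot be told apart, and this holds for every change described here.

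**Figure D1:**
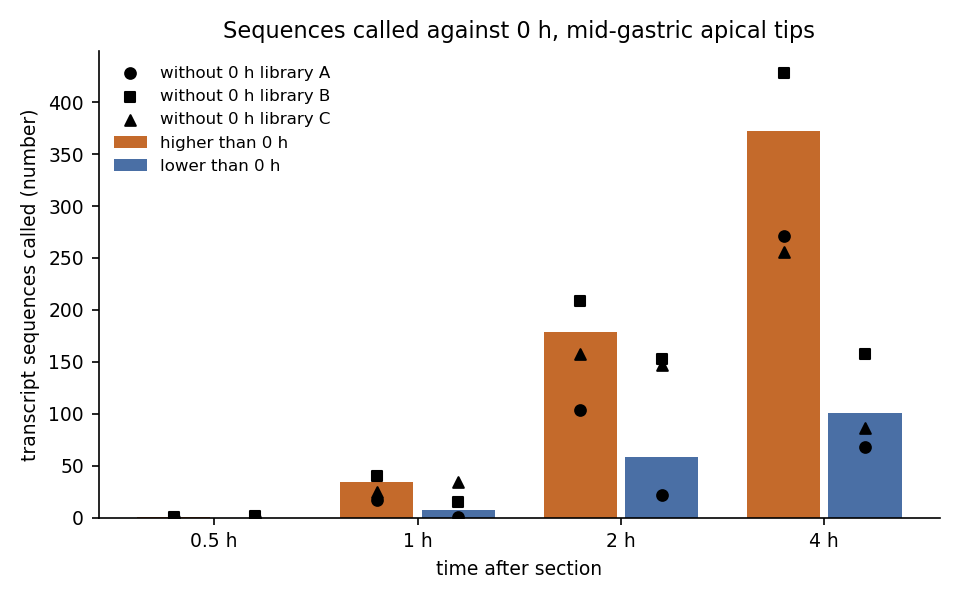
Number of transcript sequences called higher (orange) or lower (blue) than 0 h at each time in the apical tips, with the same counts after leaving out 1 of the 3 libraries of 0 h (black symbols). With all libraries higher calls outnumber lower calls at 1, 2 and 4 h, but without library C of 0 h only 25 of 59 calls at 1 h were higher, and at 4 h the total ran from 339 without library A to 586 without library B.

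At 0.5 h the main test called almost no difference from 0 h. The single call, chosen for description because it was the only one, had 0, 2 and 1 reads in the 0 h libraries A, B and C and 153, 28 and 60 reads at 0.5 h. It is 1 of 30 sequences of its locus, and the locus as a whole stood at 153, 175 and 166 CPM at 0 h (CPM are read counts scaled to a common library size) and at 166, 168 and 171 CPM at 0.5 h. The same sequence was present at 3.39, 4.56 and 3.17 CPM in the 0 h libraries of the decapitated tips and at 2.31, 4.28 and 4.43 CPM in intact animals. In the 0 h libraries of the facing basal tips it stood at 0.552, 3.90 and 0.0303 CPM, so it was low in 2 of the 3 there as well. The locus total of the apical tips did not show the difference between 0 h and 0.5 h. An unadjusted p under 0.05 was reached by 2666 sequences in edgeR, against 2714 that make up 5% of those tested. That number depended on single libraries. It was 2198 without library A of 0 h, 3616 without library B and 4582 without library C. DESeq2 called 93 sequences at this time and limma on the authors' normalized values called 4, while counts summed per locus gave 0 calls in edgeR.

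The first calls beyond a single one came at 1 h. With all libraries most were increases, but without library C of 0 h only 25 of 59 were. The 34 higher sequences, 0.0626% of those tested, came from 29 loci. Over the 15 libraries, 12209 of the 54272 tested and 3 of the 34 reached 3 in mean log2 CPM. Of the 34, 18 were under 1 CPM in every 0 h library, a share not counted over all tested, here or for the later lists. The median level of the 34 was 0.557, 0.833 and 0.465 CPM in the 0 h libraries A, B and C and 0.894, 0.805 and 1.04 CPM after 0.5 h. At 1 h it was 3.48, 3.39 and 2.92 CPM. The 0 h and 0.5 h libraries overlapped in range, and all 1 h libraries lay above both. The median stayed high at 2 h, at 4.32, 5.02 and 4.08 CPM, and was lower at 4 h, at 2.66, 1.84 and 2.96 CPM. At 0.5 h, 28 of the 34 had a fitted level above that of 0 h, with a median log2 difference of 0.78, and none was called. The 34 were chosen as higher at 1 h than in these same 0 h libraries, which raises their differences from 0 h at every time. In the basal and the decapitated tips, not used for the choice, 22 and 17 of the 34 were above 0 h at 0.5 h. The median log2 differences there were 0.252 and 0.0125.

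The most strongly increased abundant sequence at 1 h was seq31095_loc12133_vl0025794. It was 1 of 3 sequences called higher at that time that reached 3 or more in mean log2 CPM over the 15 libraries and had all 1 h libraries above those of 0 h, which is what abundant means for a called sequence from here on. Its level was 3.83, 5.88 and 4.51 CPM in the 0 h libraries and 11.1, 3.34 and 6.24 CPM at 0.5 h. It then stood at 69.7, 48.1 and 28.4 CPM at 1 h, at 71.5, 148 and 67.9 CPM at 2 h, and at 148, 105 and 117 CPM at 4 h. Every library from 1 h on was above every library of 0 and 0.5 h. The log2 fold change at 1 h was 3.36 ± 0.58 (SE), with an adjusted p of 0.00144 (edgeR quasi-likelihood, Benjamini-Hochberg), and the step from 0.5 h to 1 h was 2.82 ± 0.57 (SE), with an adjusted p of 0.0269 (edgeR quasi-likelihood, Benjamini-Hochberg). Leaving out all libraries of letter A ended the 1 h call, with a log2 fold change of 2.88 and an adjusted p of 0.169 (edgeR quasi-likelihood, Benjamini-Hochberg). The rise involved the whole locus. The other 2 sequences of the locus had means of 0.782 and 1.10 CPM in 0 h tips and 23.6 and 40.7 CPM in 4 h tips, and both were called at 4 h. After 4 h the named sequence had means of 35.1 CPM at 8 h, 14.7 CPM at 24 h and 5.28 CPM at 48 h, close to its 0 h mean of 4.74 CPM.

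The 8 lower sequences at 1 h, 0.0147% of those tested, came from 8 loci and had no abundant member. Their median level was 5.80, 3.04 and 3.45 CPM in the 0 h libraries, 2.64, 2.24 and 2.01 CPM at 0.5 h, and 1.15, 1.14 and 1.41 CPM at 1 h. Library A of 0 h was the highest of the 15. At 8 h the group median was 4.19 CPM, against 4.14 CPM at 0 h.

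**Figure D2:**
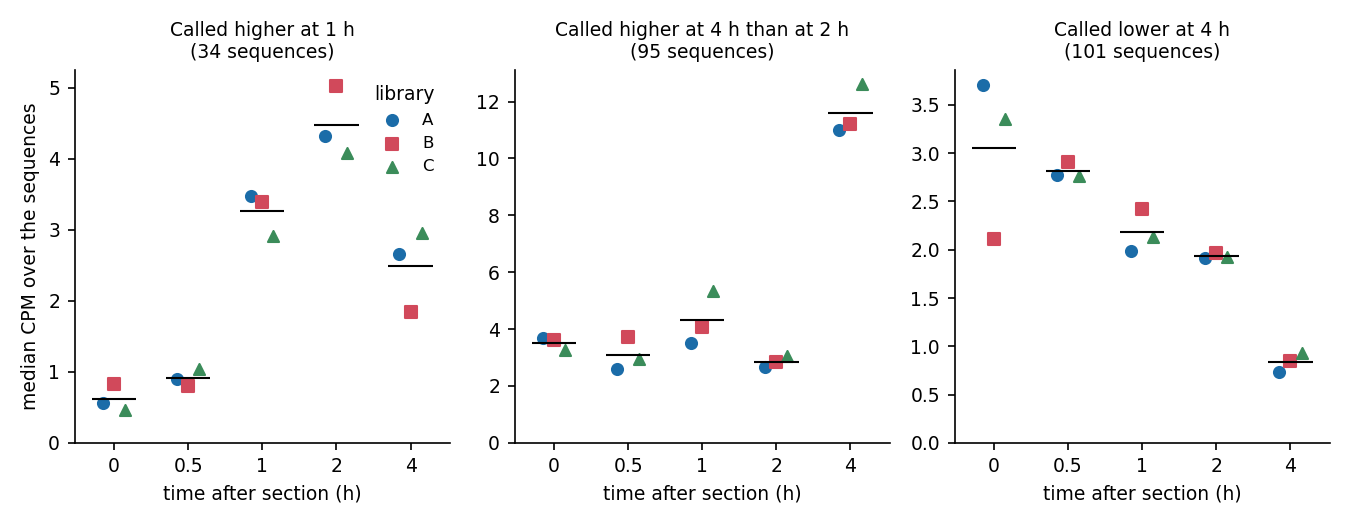
Median CPM over the sequences called higher at 1 h, higher at 4 h than at 2 h, and lower at 4 h, in each library of the apical tips (symbols by library, bars for the mean of 3). The median of the first group was highest at 2 h, that of the second was high at 4 h, and that of the third was low at 4 h, the times at which they were called being part of the choice.

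At 2 h, 179 sequences from 143 loci were called higher, or 0.330% of those tested. Of these, 178 had a fitted level above that of 0 h at 1 h already, with a median log2 difference of 1.23. The choice against the same 0 h libraries raises that difference. The median level of the 179 was 0.771, 0.965 and 0.669 CPM in the 0 h libraries and 0.894, 0.990 and 1.1 CPM at 0.5 h. It was 2.12, 2.06 and 2.27 CPM at 1 h, 3.85, 3.82 and 3.67 CPM at 2 h, and 2.91, 2.28 and 3.76 CPM at 4 h. The replicates lay close together at 2 h and their range did not overlap that of 0, 0.5 or 1 h. The gap between 0 h and 2 h was part of the choice of these sequences. Of these sequences, 84 were under 1 CPM in every 0 h library and 35 averaged at least 8 CPM over the 15 libraries. With 0.5 h in place of 0 h as the reference, 180 sequences were called at 2 h (0.332% of those tested), 163 higher (0.3%) and 17 lower (0.0313%).

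The 59 lower sequences at 2 h, 0.109% of those tested, had a median of 3.63, 1.40 and 2.01 CPM in the 0 h libraries and 0.626, 0.523 and 0.617 CPM at 2 h. Library A was again the highest at 0 h. Without it, 104 sequences were called higher and 22 lower. Library C of 0 h was 1 of 3 mid-gastric libraries that were high in a few foot list sequences, described further on. Of the 59, 7 were in the foot list. Among these were 3 sequences, chosen after their values were seen, that were called in the opposite direction in the basal tips at 2 h. The most abundant of the 3 stood at 6.05, 5.76 and 42.8 CPM in the 0 h libraries and at 3.85, 1.82 and 1.10 CPM at 2 h. In the basal tips it stood at 1.55, 1.41 and 2.36 CPM at 0 h and at 54.2, 1.19 and 0.705 CPM at 2 h. In both contrasts a single library was high, C of 0 h in the apical and A of 2 h in the basal tips. Library B of 1 h of the apical tips was also high, at 35.2 CPM, and feet held 2570 CPM.

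The only abundant sequence called lower at 2 h was seq62049_loc21222_vl0114718, the sole sequence of its locus. It stood at 80.4, 72.8 and 50.3 CPM at 0 h, at 41.3, 35.7 and 41.2 CPM at 0.5 h, and at 33.7, 48.3 and 22.2 CPM at 1 h. The 2 h libraries were lowest, at 24.2, 19.0 and 20.5 CPM, and those of 4 h were back at 76.8, 96.0 and 43.3 CPM. The ranges of 0 h and 2 h were apart, and those of 0 h and 4 h overlapped. The log2 fold change was -1.68 ± 0.25 (SE) at 2 h against 0 h, with an adjusted p of 1.62e-05, and 1.76 ± 0.255 (SE) at 4 h against 2 h, with an adjusted p of 9.19e-06 (edgeR quasi-likelihood, Benjamini-Hochberg). The level reached a mean of 230 CPM at 8 h and was 108 CPM at 48 h. The fall at 2 h was called in the basal tips as well, at a log2 fold change of -1.98 ± 0.257 (SE) and an adjusted p of 3.19e-07, and in the decapitated tips, at -1.83 ± 0.255 (SE) and 5.70e-06 (edgeR quasi-likelihood, Benjamini-Hochberg). Against 0.5 h the 2 h level was lower by a log2 difference of -0.89, with an adjusted p of 0.116 (edgeR quasi-likelihood, Benjamini-Hochberg).

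At 4 h the response was broad, with 372 sequences from 270 loci called higher (0.685% of those tested). Of these, 189 rose more than 4-fold. Their reads summed to 1851, 2778 and 1760 CPM in the 0 h libraries, 2219, 2107 and 2062 CPM at 0.5 h, and 3452, 3185 and 3704 CPM at 1 h. The sums were 4447, 5394 and 4681 CPM at 2 h and 7121, 7148 and 8988 CPM at 4 h. The 372 were chosen as higher at 4 h than at 0 h, so that gap is part of the choice. The libraries of 1, 2 and 4 h formed 3 steps without overlap, while library B of 0 h lay above all 0.5 h libraries. Library B was also the highest of its group at 0 h in the basal tips (2805 CPM) and in the decapitated tips (3071 CPM), over the same 372 sequences. At the start, 140 of the 372 were under 1 CPM in every 0 h library and 16 had no read there. At the other end, 98 abundant sequences from 82 loci were called higher, with a median log2 fold change of 1.58 and a range of 1.01 to 4.70. Of these 98, 8 had their highest mean at 2 h or before, among the 5 early times.

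The abundant sequence with the highest log2 fold change at 4 h outside the locus above was seq69930_loc23338_tr0660170. It stood at 8.00, 34.4 and 5.85 CPM in the 0 h libraries, at 4.10, 5.76 and 3.78 CPM at 0.5 h, and at 19.2, 13.5 and 64.0 CPM at 1 h. It was at 19.6, 20.8 and 20.5 CPM at 2 h and at 127, 315 and 150 CPM at 4 h. All 4 h libraries exceeded every earlier one, and at 0 h library B was more than 4-fold above A and C. The log2 fold change against 0 h was 3.62 ± 0.78 (SE), with an adjusted p of 0.00309, and against 2 h it was 3.28 ± 0.77 (SE), with an adjusted p of 0.0230 (edgeR quasi-likelihood, Benjamini-Hochberg). The call against 0 h was lost without library A or library C of 0 h, where the log2 fold change was 3.29 and 3.22 and the adjusted p 0.0607 and 0.0599 (edgeR quasi-likelihood, Benjamini-Hochberg). The sequence belongs to the foot list, with 195 CPM in feet and 4.21 CPM in heads. Its mean was 197 CPM at 4 h, 357 CPM at 8 h, 589 CPM at 16 h, 806 CPM at 24 h and 102 CPM at 48 h. It held 95.8% of the locus reads. Counts summed per locus rose by a log2 fold change of 3.51, with an adjusted p of 0.000508 (edgeR quasi-likelihood, Benjamini-Hochberg). The other 3 sequences of the locus were scarce. Those with means of 0.0875 and 0.319 CPM in 0 h tips were also called higher, at 1.16 and 2.58 CPM in 4 h tips. The remaining 1 went the other way, with means of 1.35 CPM in 0 h tips and 0.0100 CPM in 4 h tips, and was called lower.

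Decreases at 4 h were smaller in number and size. The 101 lower sequences, 0.186% of those tested, came from 94 loci, and 35 of them fell more than 4-fold. Their reads summed to 655.6, 518.9 and 648.8 CPM in the 0 h libraries and to 537.8, 540.2 and 515.1 CPM at 0.5 h. The sums were 426.5, 481.8 and 439.4 CPM at 1 h, 408.1, 378.3 and 391.6 CPM at 2 h, and 213.3, 218.8 and 188.1 CPM at 4 h. The decline from 0.5 h to 2 h was gradual and the ranges of those times did not overlap, and the drop at 4 h was larger than any before it. The 101 were chosen as lower at 4 h than at 0 h, so a large drop at 4 h is part of the choice and does not show its timing. Of the 101, 11 were abundant, from 11 loci, with a median log2 fold change of -1.23, and 10 of these 11 were within 2-fold of their 0 h mean at 48 h.

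The abundant sequence with the lowest log2 fold change was seq74419_loc24517_vl0081566. It stood at 24.9, 42.0 and 13.8 CPM at 0 h, at 23.3, 26.7 and 16.5 CPM at 0.5 h, and at 29.3, 13.8 and 18.7 CPM at 1 h. It was at 18.9, 9.32 and 15.2 CPM at 2 h and at 12.5, 6.76 and 4.99 CPM at 4 h. The 4 h libraries lay below all 0 h libraries, the gap between the nearest pair being that from 13.8 to 12.5 CPM. The log2 fold change was -1.73 ± 0.44 (SE), with an adjusted p of 0.0220 (edgeR quasi-likelihood, Benjamini-Hochberg). Without library B of 0 h it was -1.26, with an adjusted p of 0.236 (edgeR quasi-likelihood, Benjamini-Hochberg). The sequence is 1 of 23 of its locus and held 14.0% of the locus reads. The locus as a whole changed by a log2 difference of -0.06 with an adjusted p of 0.937 (edgeR quasi-likelihood, Benjamini-Hochberg), so what fell was 1 form and not the locus. The more abundant sequences of the same locus stood at 43.7, 39.2 and 21.1 CPM at 0 h and at 56.7, 36.2 and 21.7 CPM at 4 h, and none was called.

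**Figure D3:**
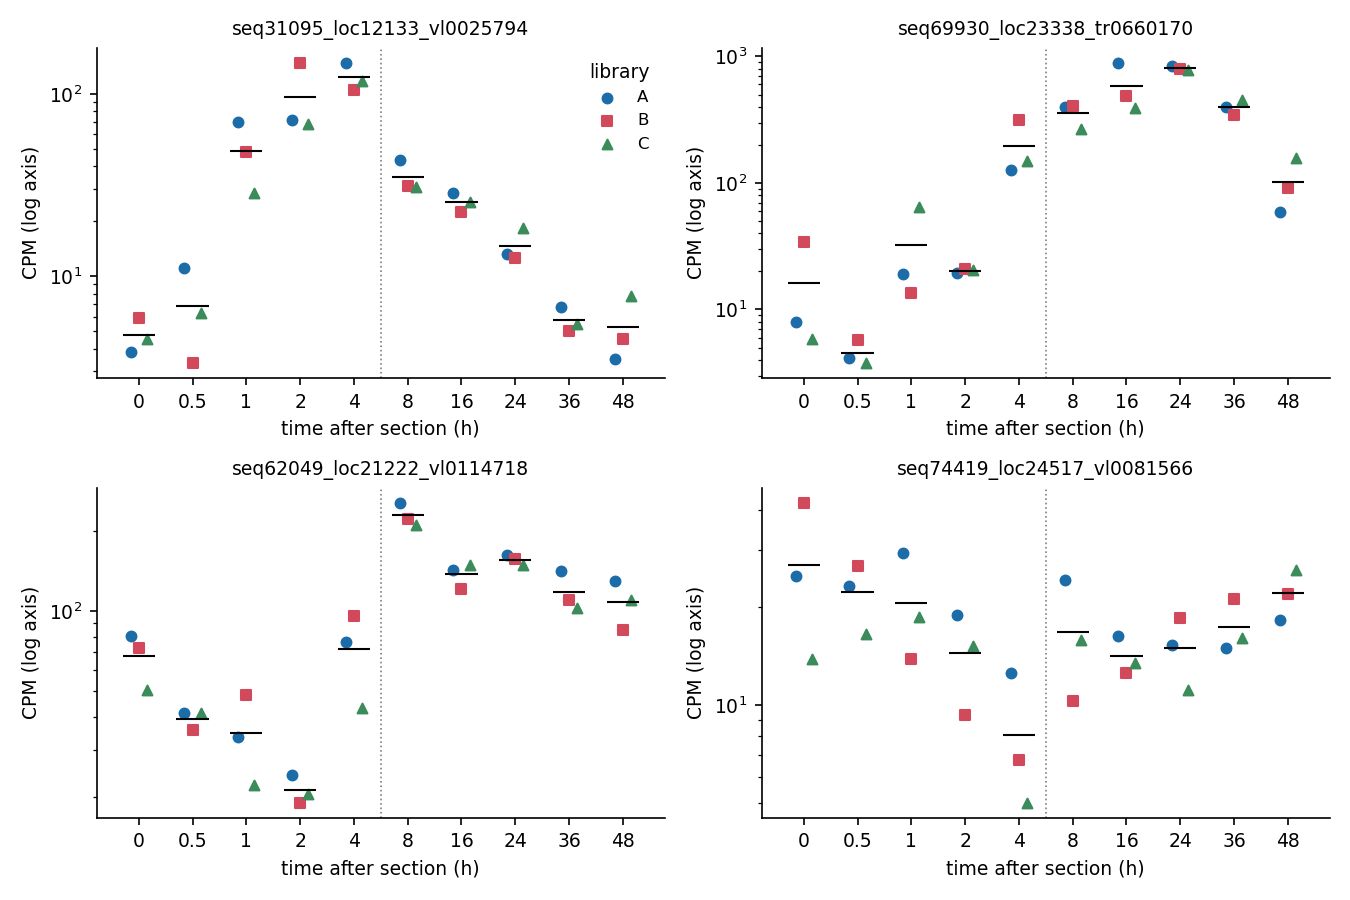
CPM (log axis) of the 4 named sequences in each library of the apical tips from 0 to 48 h (symbols by library, bars for the mean of 3, dotted line between the early and the later times). The upper pair was called higher at 1 h and at 4 h. The lower left sequence was called lower at 2 h, and its 4 h range overlapped that of 0 h. The lower right sequence was called lower at 4 h.

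Over all 5 times at once, 1036 sequences from 832 loci changed, which is 1.91% of those tested (edgeR quasi-likelihood F-test of the 4 later times against 0 h, adjusted p under 0.05). Of these, 586 had their highest mean at 4 h and 149 at 2 h. Another 151, 85 and 65 were highest at 0, 0.5 and 1 h. The lowest mean fell most often at 0.5 h, with 362 sequences, followed by 0 h with 237, while 4 h had 165 and 2 h had 162. The most frequent combination was lowest at 0.5 h and highest at 4 h, with 291 sequences. The ratio of the highest to the lowest group mean had a median of 2.92, and the middle 50% of the sequences lay between 1.91 and 5.65. Of the 1036, 531 were called in none of the 4 contrasts with 0 h.

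Among contrasts between successive times, which use no 0 h library, that from 2 h to 4 h had the most calls. It also spans the longest interval, so the counts do not place the largest step. Without the libraries of letter A it had 34 calls, and with the 15 libraries fitted alone 32. From 0.5 h to 1 h, 11 sequences were called (0.0203% of those tested), 10 higher (0.0184%) and 1 lower. From 1 h to 2 h, 9 were called (0.0166%), 2 higher (0.00369%) and 7 lower (0.0129%). From 2 h to 4 h, 95 were called higher and 27 lower (0.225%). With the replicate letter as a block, which the pairing check allows for 1 h and 2 h, the 1 h to 2 h count was 15 in place of 9.

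The 10 sequences higher at 1 h than at 0.5 h came from 8 loci and were still high at 4 h. Their median level was 1.01, 1.26 and 0.640 CPM in the 0 h libraries A, B and C and 0.606, 0.851 and 0.762 CPM after 0.5 h. It was 7.74, 5.06 and 4.17 CPM at 1 h, 6.87, 9.40 and 7.64 CPM at 2 h, and 12.7, 8.41 and 21.1 CPM at 4 h. All 9 later libraries lay above the 6 earlier ones, the gap from 0.5 h to 1 h being part of the choice. The 2 h range overlapped those of 1 h and 4 h, and the 4 h libraries lay above the 1 h libraries. Over group means the median was 4.95 CPM at 8 h and 1.69 CPM at 16 h, against 1.05 CPM at 0 h. In the other series this contrast was not tested. Their median at 0.5 h and 1 h was 0.806 and 6.09 CPM in the basal tips and 0.838 and 2.62 CPM in the decapitated tips. The 2 sequences higher at 2 h than at 1 h, from 2 loci, had a median of 6.25, 4.85 and 3.70 CPM in the 1 h libraries and 11.9, 15.2 and 12.4 CPM in the 2 h libraries.

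The 95 sequences higher at 4 h than at 2 h, from 73 loci and 0.175% of those tested, had medians between 2.60 and 5.34 CPM in the libraries up to 2 h. Their median level was 3.68, 3.63 and 3.26 CPM in the 0 h libraries, 2.60, 3.71 and 2.96 CPM at 0.5 h, and 3.51, 4.06 and 5.34 CPM at 1 h. It was 2.65, 2.83 and 3.05 CPM at 2 h and then 11.0, 11.2 and 12.6 CPM at 4 h. The 95 were chosen as higher at 4 h than at 2 h, so low 2 h and high 4 h medians are part of the choice. The 2 h medians lay below those of 0 h and 1 h, and the 4 h medians above all 12 earlier ones. The summed level did not separate 4 h in this way: library C of 1 h stood at 2033 CPM, within the 4 h range of 1907 to 2393 CPM, and the other 11 earlier libraries at 565.5 to 875.3 CPM. This group also lasted: its median over group means was 13.2 CPM at 8 h, 13.9 CPM at 24 h and 10.1 CPM at 48 h, and 40 of the 95 were within 2-fold of 0 h at 48 h. Of the 34 sequences higher at 1 h, 27 were within 2-fold of 0 h at 48 h, and their median was 1.48 CPM at 8 h and 0.994 CPM at 48 h. The 27 sequences lower at 4 h than at 2 h, 0.0497% of those tested, had group medians between 3.37 and 4.39 CPM at 0 to 2 h and 1.61 CPM at 4 h. They were at 5.19 CPM at 48 h, and 23 of them were then within 2-fold of 0 h.

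A locus that was lower at 2 h than at 1 h and 4 h accounted for 4 of the 7 sequences called lower at 2 h than at 1 h. The locus, described here because it held most of that short list, has 17 sequences in the table, of which 10 were tested, and the 4 called ones hold 77.0% of its reads in the 15 libraries. The most abundant stood at 62.9, 36.3 and 20.2 CPM at 0 h, at 37.3, 67.6 and 33.6 CPM at 0.5 h, and at 101, 89.8 and 520 CPM at 1 h. At 2 h it stood at 12.7, 6.37 and 7.54 CPM, and at 4 h at 94.3, 173 and 218 CPM. All 2 h libraries were below every other library of the 15, and library C of 1 h was the highest. The log2 fold change was -4.74 from 1 h to 2 h, with an adjusted p of 0.0344, and 4.19 from 2 h to 4 h, with an adjusted p of 0.0112 (edgeR quasi-likelihood, Benjamini-Hochberg). Summed over the locus, the log2 changes were -3.68 and 3.34, with adjusted p of 0.0228 and 0.00427 (edgeR quasi-likelihood, Benjamini-Hochberg). Against 0 h the locus was not called at 1 h or 2 h, with log2 changes of 2.36 and -1.33 and adjusted p of 0.145 and 0.444 (edgeR quasi-likelihood, Benjamini-Hochberg). The fall from 1 h to 2 h was not called for any of the 4 sequences when the libraries of letter A, B or C were left out, with adjusted p between 0.101 and 0.626 (edgeR quasi-likelihood, Benjamini-Hochberg). With the letter as a block it was called for all 4, with adjusted p between 0.0365 and 0.0405 (edgeR quasi-likelihood, Benjamini-Hochberg). With DESeq2's size factors in the same edgeR model it was called for 2 of the 4.

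The other series, which did not enter the choice of this locus, also had lower values at 2 h than at 1 h. Its summed level in the basal tips was 307, 388 and 1060 CPM at 1 h and 91.6, 46.3 and 47.2 CPM at 2 h. In the decapitated tips it was 259, 475 and 1230 CPM at 1 h and 97.7, 61.6 and 45.3 CPM at 2 h. The 1 h and 2 h ranges were apart in both, while the 0 h and 2 h ranges overlapped, and library C was the highest at 1 h in all 3 series. At 4 h the means were 432 ± 121, 575 ± 251 and 491 ± 356 CPM (SD, n = 3) in the mid-gastric apical, basal and decapitated tips. In the mid-gastric apical tips the locus then went on to 2240 ± 303 CPM (SD, n = 3) at 36 h, above feet (778 ± 223 CPM, SD, n = 3) and heads (332 ± 155 CPM, SD, n = 3). Intact animals stood at 68.4, 71.3 and 583 CPM in libraries A, B and C, so the locus also varied widely between uncut replicates. The 1 h to 2 h change of the other series was not tested.

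**Figure D4:**
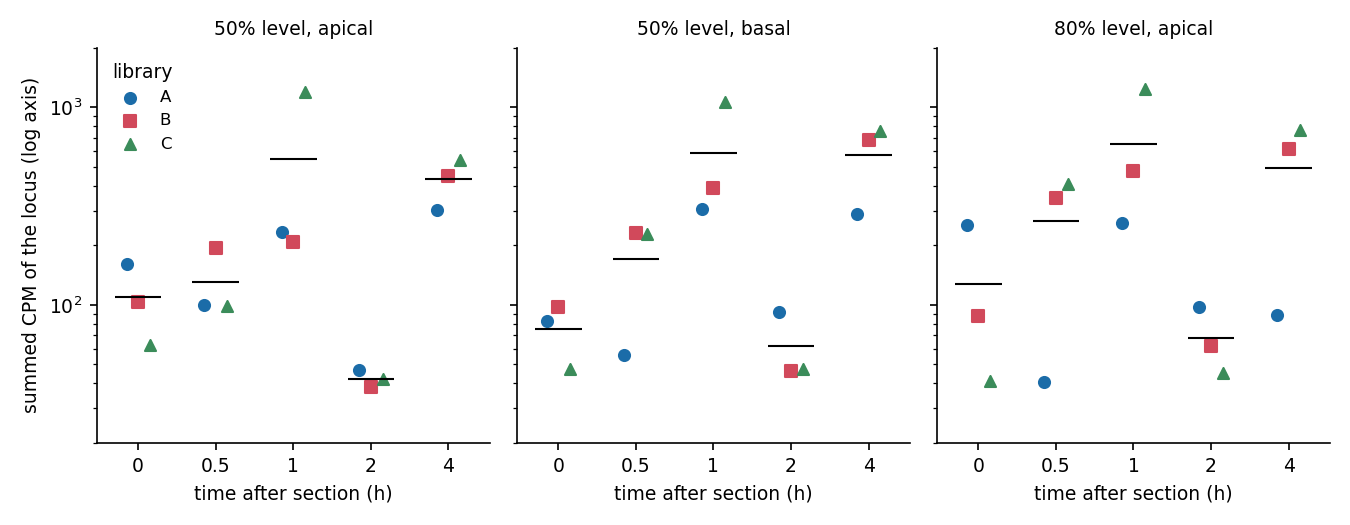
Summed CPM (log axis) of the locus that held 4 of the 7 sequences lower at 2 h than at 1 h, in each library of the mid-gastric apical, mid-gastric basal and decapitated tips from 0 to 4 h (symbols by library, bars for the mean of 3). In each series the 2 h libraries lie below those of 1 h, and library C is the highest at 1 h.

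The later libraries of the same series show how long the 4 h changes lasted. Over group means, the median of the 372 higher sequences was 1.23 CPM at 0 h and 6.06 CPM at 4 h. It was then 4.86 CPM at 8 h, 4.06 CPM at 24 h and 2.55 CPM at 48 h, the last time sampled. At 8 h 135 of the 372 were within 2-fold of their 0 h mean, at 24 h 169 and at 48 h 225. Intact animals had a median of 2.12 CPM over the same sequences, and 270 of the 372 were higher there than in 0 h tips. Heads had 2.86 CPM and feet 4.10 CPM. The 372 were chosen as low in these 0 h libraries, which raises the count of 270. Its share over all tested was not counted. The 101 lower sequences had a median of 3.31 CPM at 0 h and 0.788 CPM at 4 h, and of 1.30, 1.32 and 2.77 CPM at 8, 24 and 48 h. Of these, 76 were within 2-fold of 0 h at 48 h. These later levels are descriptions of lists chosen on the early contrasts and were not tested.

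Sequences of the foot list and the head list were among those that changed, and among the increases those of the foot list were the more numerous. The foot list separates foot from head and not foot from body column. It took 7.73% of the reads of intact animals and 9.55% of those of 0 h tips (means of 3 libraries). Of the 372 sequences higher at 4 h, 68 were in the foot list (18.3% of the 372 and 2.84% of the foot list), and 21 in the head list (5.65% of the 372 and 0.901% of the head list). The foot list makes up 4.41% of the sequences tested and the head list 4.30%. At a mean of at least 1 CPM in the 15 libraries they held 1519 and 868 sequences, so they were not equally represented at that level. Of the 101 lower sequences, 13 were in the foot list and 14 in the head list. Over the 1519 foot list sequences with a mean of at least 1 CPM in the 15 libraries, the median log2 change at 4 h was -0.02, and over 868 such head list sequences it was -0.06, against -0.02 for all tested sequences at that level. Among the 95 sequences higher at 4 h than at 2 h, 27 were in the foot list and 11 in the head list, or 28.4% and 11.6%.

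The early changes were compared with those of the facing basal tips and of the decapitated tips, each against its own 0 h libraries. At 0.5, 1, 2 and 4 h the basal tips had 0, 71, 493 and 905 calls, the last 3 being 0.131%, 0.908% and 1.67% of those tested. The decapitated tips had 0, 4, 142 and 352 calls, the last 3 being 0.00737%, 0.262% and 0.649%. At 0.5 h, an unadjusted p under 0.05 was reached by 5943 sequences in the basal and 2837 in the decapitated tips in edgeR, and no other tool was run on these contrasts. Of the 372 sequences higher at 4 h in the mid-gastric apical tips, 322 were called higher in the basal tips, which is 86.6% of the 372 and 46.3% of the 695 higher calls there (1.28% of all tested). In the decapitated tips 225 were called higher, which is 60.5% of the 372 and 75.0% of the 300 higher calls there (0.553% of all tested). None of the 372 was called lower in either. The median log2 fold change over the 372 was 2.02 in the mid-gastric apical tips, 2.12 in the basal and 1.66 in the decapitated tips, where the median of all tested sequences was 0.00 and 0.03. Of the 101 lower sequences, 45 were called lower in the basal tips (0.387% of all tested) and 25 in the decapitated tips (0.0958%). Libraries of the same letter deviated together between the apical and the basal tips at every time (smallest correlation 0.341), and between the mid-gastric and the decapitated apical tips at 0.5, 1, 2 and 4 h (smallest 0.220). At 0 h the latter correlations ran from -0.114 to 0.226. The values of the 3 series are therefore not independent.

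At 1 h, 23 of the 34 higher sequences were called higher in the basal tips (0.123% of all tested) and 1 in the decapitated tips (0.00553%). In these tips the median log2 fold change over the 34 was 2.17 and 1.39, in the same order. At 2 h, 143 of the 179 were called higher in the basal tips (0.615% of all tested) and 101 in the decapitated tips (0.24%), with medians of 1.92 and 1.69. Of the 59 lower at 2 h, 20 were called lower (0.293% of all tested) and 3 higher in the basal tips, the 3 being the foot list sequences given above. The lists were chosen on the mid-gastric apical tips, so their own medians are higher by choice, and a call in one series and not in another does not show that the series differ.

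The difference itself was tested as an interaction of series and time. For the change from 0 h to 4 h, 0 sequences differed between apical and basal tips (edgeR quasi-likelihood, smallest adjusted p of 0.327, with an unadjusted p under 0.05 for 1875), while DESeq2 called 99 and limma 0. Between the mid-gastric and the decapitated apical tips the same test called 0 sequences (edgeR quasi-likelihood, smallest adjusted p of 0.193, 2222 with an unadjusted p under 0.05), DESeq2 101 and limma 1. Over all times from 0 to 4 h, the apical and basal tips differed at 8 sequences (0.0147% of those tested), at 18 with the replicate letter as a block, and at 24 without library A of 0 h of the apical tips. Mid-gastric and decapitated apical tips differed at 0 over all times (edgeR quasi-likelihood, smallest adjusted p of 0.0852, 1248 with an unadjusted p under 0.05), with 2 calls each in DESeq2 and limma. For the 372 sequences higher at 4 h, the change in the mid-gastric apical tips minus that in the basal tips had a median log2 value of -0.15, and minus that in the decapitated tips of 0.32. An unadjusted p under 0.05 for the difference was reached by 27 and 34 of the 372. For the 101 lower sequences the medians were -0.35 and -0.54, and 16 and 27 of the 101 reached an unadjusted p under 0.05. Both lists were chosen on the mid-gastric apical tips, so these medians are not independent of that choice. With 3 libraries a group, smaller differences were not detectable.

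Of the 8 sequences whose course differed between apical and basal tips, 7 were in the foot list and were high in single libraries. The summed level of the 7 was 145 CPM in library C of 0 h and 126 CPM in library B of 1 h of the apical tips, and 202 CPM in library A of 2 h of the basal tips. In the other 27 of the 30 libraries the sum was between 1.83 and 23.7 CPM, and in feet it was between 5890 and 12300 CPM. The highest sum in a tip was 2.12% of the mean level in feet. The eighth sequence had no such library: at 1 h it stood at 0.791, 2.52 and 0.803 CPM in the apical tips and at 0, 0.0860 and 0 CPM in the basal tips, and at 4 h at means of 1.99 and 2.77 CPM. Without the 3 libraries the test called 3 sequences, and the early counts of the apical tips against 0 h were 3, 17, 262 and 340 at 0.5, 1, 2 and 4 h. Across the foot list, 26 sequences stood out in library C of 0 h and 27 in library B of 1 h, meaning at least 2 CPM and 5-fold above the median of the other 14 libraries. The 4 h libraries had 19, 16 and 35 such sequences. Whether the 3 libraries held tissue from the foot end was not tested.

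**Figure D5:**
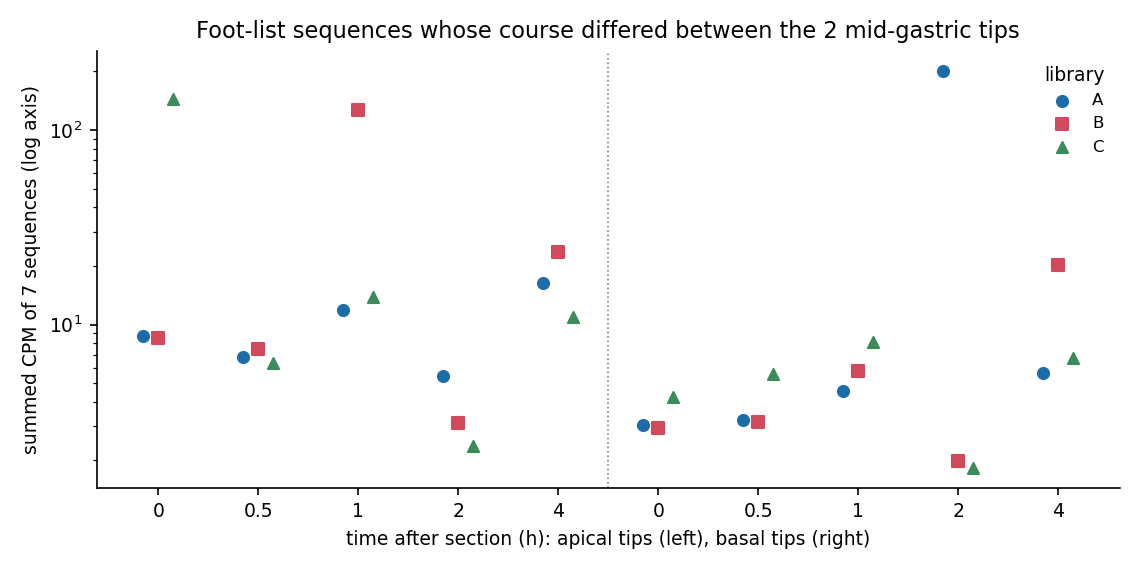
Summed CPM (log axis) of the 7 foot list sequences whose course from 0 to 4 h differed between mid-gastric apical tips (left of the dotted line) and basal tips (right), in each of the 30 libraries. Library C of 0 h and library B of 1 h among the apical tips and library A of 2 h among the basal tips lie at 126 CPM or above, and the other 27 at 23.7 CPM or below.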

How the data were processed

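PolyA RNA of Hydra tips was sequenced by the authors as directional TruSeq libraries. The deposited table gives raw read counts for 79774 sequences of 25879 loci. A second deposited table gives a normalized signal for 40479 of them, made by the authors, and served an alternative. The submitters' processing notes list cutadapt 1.11, Salmon 0.7.2 and DESeq2 without roles. The aligner, reference and counting rule are not given in the sources used here, and reads of near-identical sequences of one locus may have been split between them. Replicates are biological triplicates per the labels. In the main model the p-values rest on the spread between replicates estimated over all 33 groups, not only over the groups compared.

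Counts were tested with edgeR 4.0.16 (R 4.3.3) in 1 quasi-likelihood model of all 99 libraries with 1 coefficient per group, TMM scaling and edgeR's default filter on low counts, which kept 54272 sequences and 99.92% of reads. Adjusted p-values are Benjamini-Hochberg. CPM are TMM-scaled. The same method was first tested on simulated counts for the 4 h against 0 h contrast of the 15 libraries alone. The model of all 99 libraries was not tested in this way. DESeq2 1.42.0, limma 3.58.1 on log2(signal + 1), other filters, scalings and library sets were alternatives. Named sequences were the most changed of those reaching 3 in mean log2 CPM with groups apart: the largest rise at 1 h, the largest rise at 4 h of another locus, and the largest falls at 2 h and 4 h. Members and lists were chosen with earlier results of these data known. Same-letter libraries deviated together (every correlation above 0.1) for 4 h with 0 h, 2 h with 1 h, 4 h with 1 h, the apical with the basal tips at each time, and the mid-gastric with the decapitated tips at 0.5 to 4 h. This did not hold for the other pairs checked. A pair of alternatives that leave out libraries was chosen after seeing the data.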

Additional observations from a re-analysis of the deposited data

Results flagged for a closer look

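The time course from 0 to 4 h differed between mid-gastric apical and basal tips at 8 sequences by the interaction test (edgeR quasi-likelihood, adjusted p from 0.0210 to 0.0414, Benjamini-Hochberg), and this was the only result singled out because groups differed in their response. Of the 8, 7 were foot list sequences at 126 to 202 CPM summed in 3 libraries and at most 23.7 CPM in the other 27, and the test called 3 without those libraries. Groups of 3 libraries are too small for the outlier test used for larger groups, so no sample was singled out by it.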

How the results depend on the processing

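All counts are given in the order 0.5, 1, 2 and 4 h against 0 h, any change, 1 h against 0.5 h, 2 h against 1 h and 4 h against 2 h unless named. The main counts were 1, 42, 238, 473, 1036, 11, 9 and 122. The 15 libraries fitted alone gave 0, 8, 80, 231, 297, 3, 1 and 32, and the 30 apical and basal libraries fitted alone gave 0 for the apical against basal course. The newer quasi-likelihood method gave 5, 80, 426, 691, 1396, 30, 25 and 190, DESeq2 gave 93, 217, 533, 770, 1537, 132, 143 and 295, and limma on the authors' values gave 4, 79, 343, 611, 1210, 38, 27 and 178. Counts per locus gave 0 at 0.5 h, 20 for 1 h against 0.5 h and 4 for 2 h against 1 h. No fold minimum gave 221 for 4 h against 2 h, and 0.5 h as the reference gave 11 at 1 h. Without the 3 libraries holding foot-end sequences, chosen after seeing the data, 3 were called at 0.5 h and 17 at 1 h.

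Leaving out libraries of 1 letter, or 1 library of 0 h, gave 0 to 8, 8 to 147, 95 to 362, 246 to 586, 565 to 996, 6 to 27, 2 to 6 and 34 to 107. For apical minus basal tips it gave 0 to 2 at 4 h and 0 to 24 over all times, and for mid-gastric minus decapitated tips 0 to 1 at 4 h and 0 to 1 over all times. Of the 473 calls at 4 h, 283 were among the 339 without library A of 0 h, 466 among the 474 with other size factors and 216 among the 231 of the 15 libraries alone. Of the 238 calls at 2 h, 112 were among the 126, 234 among the 243 and 71 among the 80 of the same settings. Of the 42 calls at 1 h, 14 were among the 18, 39 among the 40 and 5 among the 8.

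The replicate block gave 0, 46, 245, 490, 1107, 11, 15 and 142, and 0, 18, 0 and 0 for the 4 interaction tests. It changed no other call of a count by over 1.5 times. For apical minus basal tips at 4 h, DESeq2 gave 99, and 1 was called without the foot-end libraries. Over all times the newer method gave 16, DESeq2 38, limma 1 and the set without those libraries 3. For mid-gastric minus decapitated tips at 4 h, the newer method gave 2, DESeq2 101, limma 1 and the set without those libraries 2. Over all times these gave 1, 2, 2 and 1. The cause of these differences between tools was not tested.

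The 4 named sequences kept their direction under all alternatives run, and 14, 11, 13 and 9 of 15 kept the call of the first and second rise and the first and second fall. The highest adjusted p among them was 0.169, 0.0742, 0.116 and 0.937. Depth had a median of 33387934 reads per library, and how detection varied with abundance was not tested.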

Other observations

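Some sequences were on in 1 library and off in another of the same group. Over the 15 libraries, 43 sequences had under 1 CPM in a library and at least 30 CPM in a replicate of it, in 56 group-wise cases, 27 of them at 0 h. Of the 43, 40 belong to loci with several sequences, as do 85.65% of all sequences tested. In 49 of the 56 cases the locus total of the libraries compared differed by less than 2-fold. None of the 43 was among the calls at 4 h. The 0 h low library was B in 13 cases, C in 10 and A in 4.

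The share of identifiers of the vl kind was 53.2% among the 372 sequences higher at 4 h and 49.5% among the 101 lower, against 40.9% of all tested. What the identifier kinds stand for is not given in the sources used here.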
